A study of Homo sapiens with 6 samples.

Results

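The genes described here are the Klotho co-receptors KL and KLB, the FGF receptors FGFR1, FGFR2, FGFR3, FGFR4 and FGFRL1, and the adapters FRS2 and FRS3. These 9 genes were chosen by name, and each was read from the brightest probe set, by mean over the 6 arrays, whose annotation names that gene and no other. Of the 9 genes, 8 had such a probe set, out of 14232 genes that did in the whole series. No probe set carried the symbol FRS2 in the annotation used here, and FRS2 was therefore not analysed. Each of the 8 had 1 probe set of its own, and 1 further probe set that pairs FGFRL1 with a second gene was not used.

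The 6 arrays were of MO3.13 cells, a human line given in the labels as oligodendroglioma and known in the field as a hybrid made by fusing adult human oligodendrocytes with a rhabdomyosarcoma line. The 3 treated samples were exposed for 3.5 h to mouse Klotho, a recombinant protein, at 0.4 µg/mL in DMEM without serum. The labels give growth medium with 10% fetal bovine serum for all 6 samples, treated and control. For the 3 control samples the labels name no other medium and do not say whether they too were moved to medium without serum. If they were not, the protein and the absence of serum cannot be told apart. All samples were of this 1 line, and the medium held penicillin, streptomycin, L-glutamine and sodium pyruvate in each. The added protein was of mouse origin and was not itself measured by the KL probe set, which reports human KL transcripts.

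FGF receptors are tyrosine kinases that dimerise on binding FGF together with heparan sulfate. The endocrine FGFs bind heparan sulfate weakly and need a Klotho protein as co-receptor: alpha-Klotho, encoded by KL, forms the receptor for FGF23 with FGF receptors, and beta-Klotho, encoded by KLB, serves FGF19 and FGF21. The activated receptor phosphorylates the membrane-anchored adapters FRS2 and FRS3, which recruit GRB2 and SHP2 and so feed the RAS-ERK and PI3K-AKT pathways. In the oligodendrocyte lineage FGF signalling is known for driving the growth of precursors.

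Each array gave 22011 log2 signals, with medians of 6.36 to 6.47 and correlations between arrays of 0.985 to 0.991. As deposited, 62.6% of all genes lay lower in treated than in control samples, with a median difference of -0.03 (log2). The oligodendrocyte markers measured (9 of 11) had array means of 5.77 to 5.88 in control and 5.76 to 5.98 in treated samples. They ran from MOG (4.58 in control and 4.59 in treated samples) to CNP (8.83 and 8.81). MOG was the 1 dim marker, which here means a mean signal under the lower quartile over probe sets (4.70). The skeletal muscle and rhabdomyosarcoma markers (9 of 12) had array means of 7.87 to 7.92 and 7.85 to 7.89. They ran from MYF5 (3.60 and 3.66), the 1 dim marker of this list, to CHRNA1 (11.67 and 11.68). MYOD1, the master regulator of muscle fate, was at 9.72 in control and 9.63 in treated samples. The mean of the 7 astrocyte markers was 4.58 to 4.76 in control and 4.52 to 4.76 in treated samples. That of 6 neuron markers was 4.70 to 4.81 and 4.58 to 4.76. Of these, 4 astrocyte markers and 1 neuron marker were dim. No marker list was separate between the groups by its mean. DES was the 1 marker whose groups did not overlap (8.58 in control and 8.32 in treated samples), against 5.3% of all genes lower and 2.59% higher. The muscle list held 5 genes lower and 4 higher in treated samples. The part of other cell types in the values below was not tested. In bulk RNA, fewer cells of a type and less RNA per cell cannot be told apart.

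The comparison of treated with control samples asked whether transcripts of the receptor apparatus through which Klotho acts differed after 3.5 h. None of the 8 genes passed: 0 had a limma adjusted p under 0.05 (each 0.998), against 0% of the 22011 probe sets. At an unadjusted p under 0.05 the count was 0 of 8, against 3.19% of all probe sets (703) and 2.07% of all genes (295). Of the 8 genes, 6 lay lower and 2 higher in treated samples, with a median difference of -0.05 beside -0.03 for all genes. The split was 4 and 4 with each array centred on its median, with quantile normalization and with cyclic loess. The ranges of the 2 groups were separate for 2 of the 8 (FGFRL1 and FRS3, both lower in treated samples), against 7.89% of all genes, made up of 5.3% lower and 2.59% higher. Under each of those 3 scalings the count was 0 of 8, against 2.14% to 3.27% of all genes lower and 3.38% to 4.88% higher.

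**Figure D1:**
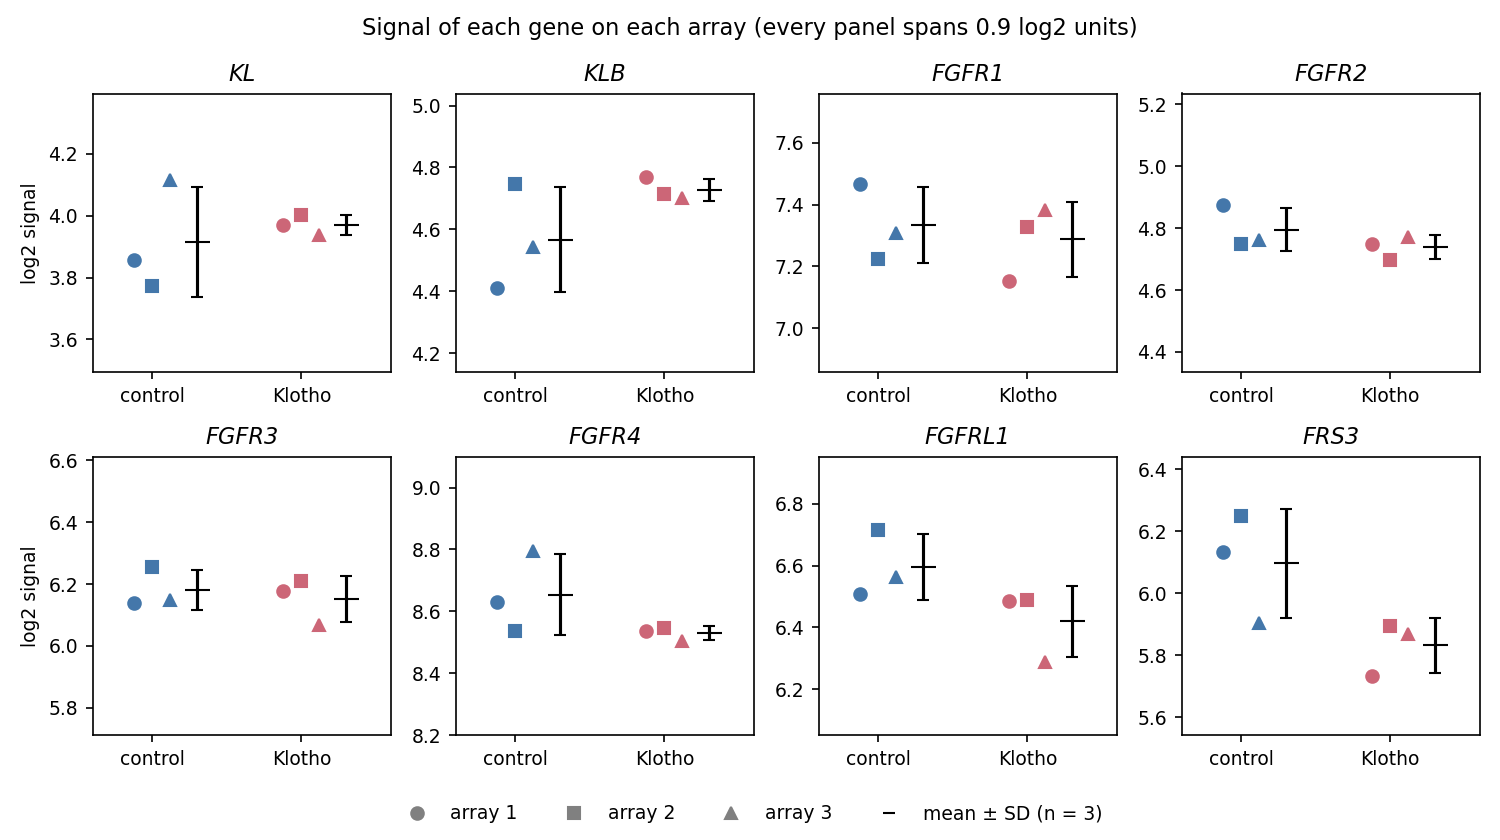
Log2 signal (vertical axis, 0.9 units in every panel) of the 8 genes on the 3 control and 3 Klotho-treated arrays. Symbols mark arrays 1 to 3 within a group, which were not treated as pairs, and the bar gives the group mean ± SD (n = 3). The groups overlap in 6 panels, and in those of FGFRL1 and FRS3 the lowest control value lies just above the highest treated value.

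For all 8 the 95% interval lay within a 1.5-fold change, up or down, as it did for 91.7% of all genes. These intervals rest on the spread between arrays of a group, which may be technical. If it is, a change of 1.5-fold between separate cultures is not excluded. The standard error of the difference had a median of 0.10 over the 8 genes and 0.11 over all genes. A bound on the signal of a dim probe set need not bound the transcript, which concerns KL and KLB, both below the lower quartile of mean signal. It may also concern FGFR2, whose mean of 4.77 was just above that quartile (4.70).

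**Figure D2:**
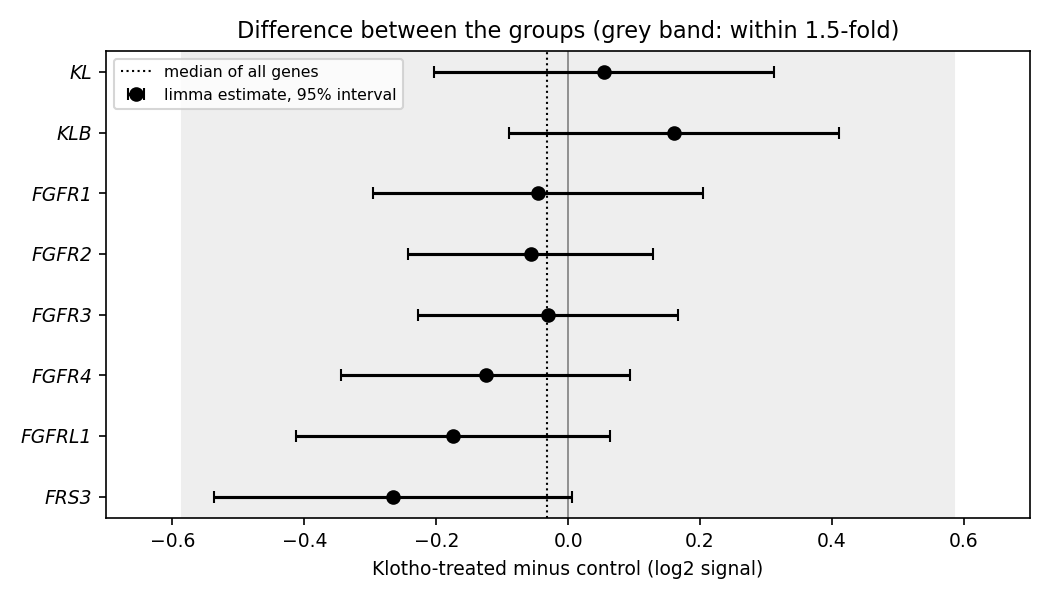
Difference between treated and control samples (log2 signal, horizontal axis) for each of the 8 genes, with the 95% interval from limma (n = 3 per group). All 8 intervals include 0 and lie inside the grey band of a 1.5-fold change; the dotted line is the median of all genes (-0.03).

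KL, the gene of alpha-Klotho itself, read 3.86, 3.77 and 4.12 on control arrays 1 to 3 and 3.97, 4.003 and 3.94 on treated arrays 1 to 3. The treated values lay within the range of the controls, whose spread (SD 0.18) was wider than that of the treated arrays (SD 0.03). The difference was 0.05 ± 0.11 (SE; 95% interval -0.20 to 0.31; 1.04-fold), with a limma adjusted p of 0.998. Leaving out control array 2, the lowest of the 6, gave -0.016, and leaving out control array 3, the highest, gave 0.16.

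KLB, which encodes the co-receptor for FGF19 and FGF21, read 4.41, 4.75 and 4.54 in control and 4.77, 4.71 and 4.70 in treated samples. The treated arrays were close together and the controls spread below and up to them, with control array 2 inside the treated range and control array 1 the lowest. The difference was 0.16 ± 0.10 (SE; 95% interval -0.09 to 0.41; 1.12-fold; limma adjusted p = 0.998). Leaving out control array 1 gave 0.083. Leaving out control array 2 gave 0.25, with an unadjusted p of 0.0334 and a limma adjusted p of 0.866. KLB and FRS3, described further on, are the genes with the most positive and most negative difference, and the bases before their start sites are shown. These stretches differ widely in CpG content, though those of KL, FGFR2 and FGFR3 differ more from that of KLB. Sequences are from RefSeq (GRCh38.p14), written 5′ to 3′ on the gene's strand, with each CG in capitals; CG reads the same on both strands. The KLB stretch is the 250 bases at chr4:39406680-39406929, plus strand.

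KLB: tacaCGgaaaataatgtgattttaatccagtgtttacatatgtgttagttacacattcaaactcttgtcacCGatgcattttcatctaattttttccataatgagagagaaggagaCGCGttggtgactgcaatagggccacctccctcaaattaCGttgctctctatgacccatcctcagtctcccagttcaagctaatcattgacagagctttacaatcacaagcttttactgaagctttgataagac

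It holds 5 CG and is 39.2% G or C. Among the first-listed RefSeq promoters of 27305 genes, the median number of CG in 250 bases was 11, and 65.0% had at least 5.

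FGFR1, the receptor most often named as partner of alpha-Klotho, read 7.47, 7.22 and 7.31 in control and 7.15, 7.33 and 7.38 in treated samples. Each group spanned nearly the same range, and the lowest value (treated array 1) and the highest (control array 1) were of different groups. The difference was -0.05 ± 0.10 (SE; 95% interval -0.30 to 0.20; 0.969-fold). Its sign depended on single arrays: it was 0.021 without control array 1 and 0.022 without treated array 1.

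FGFR2, whose splice forms answer different sets of FGFs, read 4.87, 4.75 and 4.76 in control and 4.75, 4.70 and 4.77 in treated samples. Control array 1 stood above 5 otherwise close values. Its SD over the 6 arrays was 0.059, at the 6.94th percentile of all genes, and its mean of 4.77 was just above the lower quartile. The difference was -0.06, with a 95% interval of -0.24 to 0.13.

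FGFR3, a receptor best known for restraining bone growth, read 6.14, 6.26 and 6.15 in control and 6.18, 6.21 and 6.07 in treated samples. The groups overlapped along most of their range. The difference of -0.03 (95% interval -0.23 to 0.17) was the smallest in size of the 8, and its SD over the 6 arrays was at the 9.66th percentile of all genes.

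FGFR4, the receptor that partners beta-Klotho in FGF19 signalling and a gene known for high expression in rhabdomyosarcoma, read 8.63, 8.54 and 8.79 in control and 8.54, 8.55 and 8.50 in treated samples. The treated arrays lay within 0.043 of each other, and control array 2 fell among them, whereas control arrays 1 and 3 were above all 3. The difference was -0.12 ± 0.09 (SE; 95% interval -0.34 to 0.09; 0.917-fold; limma adjusted p = 0.998). It was -0.055 without control array 3, the highest of the 6, and -0.18 without control array 2.

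FGFRL1 encodes a receptor-like protein that binds FGFs but lacks the tyrosine kinase domain. It read 6.51, 6.71 and 6.56 in control and 6.49, 6.49 and 6.29 in treated samples. All 3 treated values lay below all 3 controls, by a gap of 0.020 between the nearest. The difference was -0.17 ± 0.10 (SE; 95% interval -0.41 to 0.06; 0.886-fold; unadjusted p = 0.124; limma adjusted p = 0.998). In size it was at the 87.4th percentile of all genes. With each array centred on its median the difference was -0.13, and treated array 1 (6.5343) and control array 1 (6.4385) had changed order. Without treated array 3, the lowest, or without control array 2, the highest, it was -0.11.

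FRS3 encodes the second of the docking adapters, which is anchored to the membrane by a lipid and binds FGF receptors through its phosphotyrosine-binding domain. It read 6.13, 6.25 and 5.90 in control and 5.73, 5.89 and 5.87 in treated samples. All treated values lay below the controls, but control array 3 and treated array 2 were only 0.010 apart. The difference was -0.27 ± 0.11 (SE; 95% interval -0.54 to 0.0060; 0.832-fold; unadjusted p = 0.0539; limma adjusted p = 0.998). This was the largest difference in size of the 8 genes, at the 96.1th percentile of all genes. The unadjusted p was 0.0157 without control array 3 (difference -0.36), 0.0380 when only probe sets with 1 gene symbol were fitted and 0.151 without control array 2 (difference -0.19). The limma adjusted p of FRS3 ran from 0.731 to 1.00 over all alternatives. The 250 bases before its start site lie at chr6:41779901-41780150, minus strand.

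FRS3: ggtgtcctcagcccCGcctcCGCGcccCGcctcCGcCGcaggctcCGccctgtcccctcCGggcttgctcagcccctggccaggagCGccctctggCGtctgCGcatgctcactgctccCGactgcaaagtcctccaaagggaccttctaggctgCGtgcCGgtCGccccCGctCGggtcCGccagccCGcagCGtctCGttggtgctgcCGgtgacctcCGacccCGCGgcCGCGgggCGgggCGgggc

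This stretch holds 29 CG and is 76% G or C, and 13.8% of the 27305 promoters had at least as many CG. In the same window KL had 38 CG, FGFR2 42, FGFR3 40, FGFR4 24, FGFRL1 21 and FRS2 14, so that KLB was the one of the matched genes below the median of 11. No promoter was matched for FGFR1. Nothing is drawn from these counts about the difference between the groups.

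The 8 genes did not move together from array to array. Control array 1 was the highest of the 6 for FGFR1 and FGFR2 and the lowest for KLB. Control array 2 was the highest for FGFR3, FGFRL1 and FRS3 and the lowest for KL, and control array 3 was the highest for KL and FGFR4. Treated array 1 was the lowest for FGFR1 and FRS3 and the highest for KLB, and treated array 3 was the lowest for FGFR3, FGFR4 and FGFRL1. For 6 of the 8 genes the SD was larger among the controls than among the treated arrays, as it was for 55.1% of all genes. The array medians deviated from their mean by -0.049 (treated array 1) to 0.070 (control array 1), less than the widest deviation of each of these genes.

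**Figure D3:**
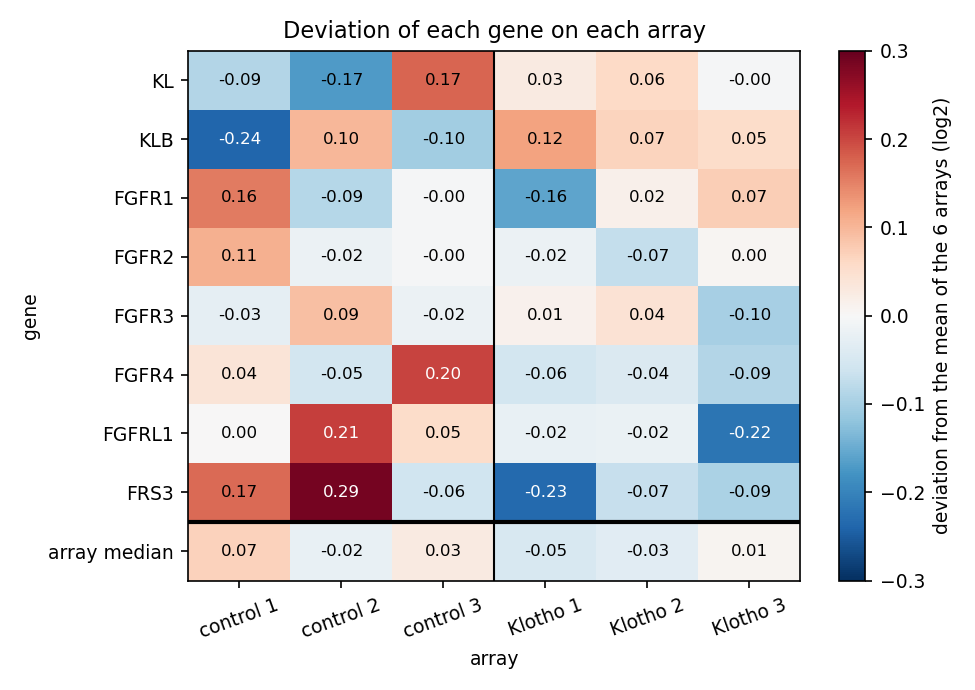
Deviation of each of the 8 genes (rows) on each array (columns) from its own mean over the 6 arrays, on the log2 scale, with the deviation of the array median in the bottom row. No array is high or low for all genes; the widest deviations are those of FRS3 on control array 2 (0.29) and KLB on control array 1 (-0.24).

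Of the 28 pairs among the 8 genes, 12 correlated positively over the 6 arrays, and the median Pearson r was -0.06. The highest was FGFR3 with FGFRL1 (r = 0.86), and it was 0.83 with each array centred on its median. The lowest was KLB with FGFR2 (r = -0.81), which was -0.20 after centring. These are descriptions over 6 arrays of 1 line that share their scaling. For the 3 genes whose SD over the arrays was at or above the median of all genes, the gene of highest Pearson r was also recorded. For KLB it was the axonemal dynein gene DNAH9 (r = 0.999), for FGFRL1 it was HOATZ (r = 0.997), and for FRS3 it was the synaptic vesicle gene SV2A (r = 0.990). DNAH9 (4.05 to 4.22) and HOATZ (3.46 to 3.95) read below the lower quartile of mean signal (4.70) on every array. Over the 6 arrays 100 of the 14231 other genes had r above 0.9 with KLB, 80 with FGFRL1 and 144 with FRS3. Each gene named is thus 1 of many with a high r.

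The directions of KLB, FGFR2, FGFR4, FGFRL1 and FRS3 were the same under every alternative that gave them a value, and those of KL, FGFR1 and FGFR3 were not. The range was 0.083 to 0.25 for KLB, -0.22 to -0.11 for FGFRL1 and -0.36 to -0.16 for FRS3. The differences of FGFR1 and FGFR3 were positive with median centring, quantile normalization and cyclic loess. Of 134 values under alternatives, 121 kept the direction of the deposited values, 13 did not, and 0 were past the adjusted threshold in limma. The filters, the variance priors, the replicate block and the mean of all probe sets leave each of these differences as deposited. Values from those settings could not change direction, so the 121 overstates the agreement.

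**Figure D4:**
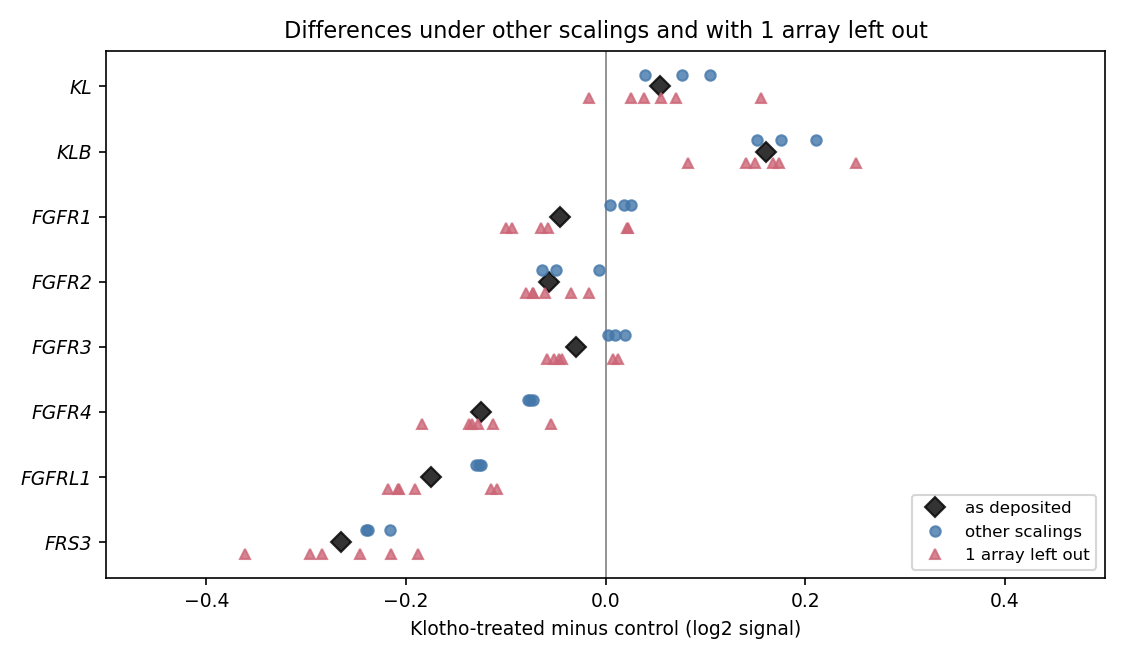
Difference between treated and control samples (log2 signal) of each gene as deposited (diamonds), under 3 other scalings (circles) and with each of the 6 arrays left out in turn (triangles). KLB stays right of 0 and FGFR2, FGFR4, FGFRL1 and FRS3 left of 0 throughout, and the points of KL, FGFR1 and FGFR3 fall on both sides.

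The other genes of the pathway were taken from 5 lists by role, which together held 86 genes, 66 of them measured. Of the 66, 0 passed the limma adjusted threshold in either direction, against 0% of all probe sets, and 1 had an unadjusted p under 0.05. The groups did not overlap for 8 of the 66, against 7.89% of all genes. As deposited 49 lay lower and 17 higher, beside 62.6% lower among all genes.

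The FGF ligands (15 of 18 measured) were 4 lower and 11 higher in treated samples, with a median difference of 0.03 and 0 past the threshold. FGF21, the liver and stress hormone that signals through KLB, read 5.03, 5.29 and 5.22 in control and 5.37, 5.37 and 5.27 in treated samples, a difference of 0.16 (95% interval -0.07 to 0.39). FGF23, the phosphate-regulating hormone that signals through KL, differed by 0.18 (95% interval -0.23 to 0.60), and treated array 1 (5.86) stood above the other 5 values, which ran from 5.16 to 5.45. FGF20 differed by 0.08. Under the 3 other scalings 12 to 15 of the 15 ligands were higher. Without control array 1, without treated array 1 or without treated array 2, 8 of the 15 were lower.

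The receptor-proximal signalling genes (14 of 25 measured) were all lower as deposited, with differences of -0.21 to -0.04, a median of -0.13 and 0 past the threshold. The groups did not overlap for 5 of the 14, all lower, against 5.3% of all genes lower. Under the 3 other scalings 13 of the 14 were lower, with medians of -0.08 to -0.07, and 2 to 4 did not overlap, against 2.14% to 3.27% of all genes lower and 3.38% to 4.88% higher. The median was -0.068 without control array 1 and -0.071 without treated array 1, with 13 of the 14 lower in both. Among the brightest 25% of genes 72.2% were lower as deposited, with a median of -0.04. The kinase gene AKT1 read 9.27, 9.25 and 9.20 in control and 8.88, 9.12 and 9.09 in treated samples, a difference of -0.21 (95% interval -0.43 to 0.01). SHC1, an adapter between receptors and GRB2, differed by -0.16 and PLCG1, the phospholipase that binds activated FGF receptors, by -0.13. The part of signal level and scaling in these values was not tested further.

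The inhibitors of FGF receptor signalling (13 of 15 measured) were 12 lower and 1 higher as deposited, with a median of -0.04, and 3 to 5 lower under the other scalings. With 1 array left out 9 to 13 were lower, and the median ran from -0.065 without control array 2 to -0.0092 without control array 1, with -0.025 and -0.021 without treated arrays 1 and 2. DUSP4, a phosphatase of MAP kinases, differed by -0.17, the ubiquitin ligase gene CBL by -0.18 and SPRED1, which restrains RAS, by -0.06. The membrane partners of FGF receptors (13 of 17 measured) were likewise 12 lower and 1 higher as deposited, and 6 to 8 lower under the other scalings. Without control array 1 or treated array 1 they were 6 lower of 13, with medians of 0.00093 and 0.0058. The median was -0.072 and -0.092 without control arrays 2 and 3 and -0.13 without treated array 3. SDC1, a heparan sulfate proteoglycan of the cell surface, was the 1 gene with an unadjusted p under 0.05. It read 7.06, 6.75 and 6.82 in control and 6.61, 6.58 and 6.67 in treated samples, a difference of -0.26 (95% interval -0.50 to -0.01; limma adjusted p = 0.998). With each array centred on its median the list held 0 genes with an unadjusted limma p under 0.05. Quantile normalization left 1 such gene, as did cyclic loess. The adhesion molecule gene NCAM1 differed by -0.16 and the glypican gene GPC4 by -0.18.

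The ERK output genes (14 of 14 measured) were 10 lower and 4 higher as deposited, with a median of -0.04, and 5 to 7 lower under the other scalings. Without treated array 1 all 14 were lower (median -0.056), and without control array 1 the count was 7 (median -0.0062). FOS, a subunit of the AP-1 factor, read 6.05, 6.07 and 5.99 in control and 5.93, 5.86 and 5.67 in treated samples. The difference was -0.22 (95% interval -0.44 to 0.0099). Its groups did not overlap, which held for 1 of the 14 genes, against 5.3% of all genes lower. After median centring of each array the list held 0 such genes, against 2.14% of all genes lower. Quantile normalization left 1 such gene, as did cyclic loess. IER2 differed by -0.15 and the ETS factor gene ETV1 by -0.10. No gene of this list passed the adjusted threshold, and 3.5 h was the one time measured.

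**Figure D5:**
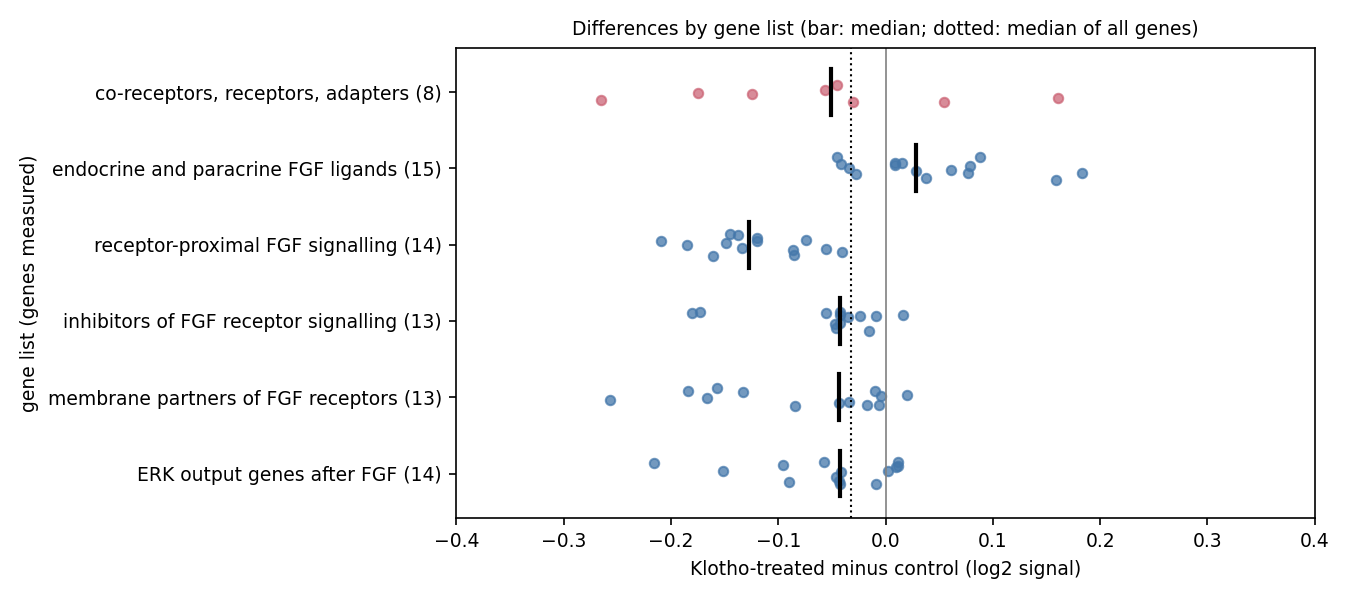
Difference between treated and control samples (log2 signal, horizontal axis) of every measured gene in the set described here (red) and in the 5 pathway lists (blue), as deposited; vertical bars are list medians and the dotted line is the median of all genes (-0.03). The receptor-proximal genes all lie left of 0 (median -0.13), and the ligands lie around 0.03; 3 genes stand in both the inhibitor and the ERK output list.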

How the data were processed

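The deposited table holds log2 signals, 1 per probe set and array. The authors used RMA (background correction, normalization and summarization on the log2 scale), per the submitters' processing notes, which give no version; the software and any filter were not given in the sources used here. Per the labels' protocols, labelled cDNA was made with a Nugen kit and 100 ng of RNA. Of 22011 probe sets, 14432 carry 1 gene symbol, 2408 several and 5171 none in the platform annotation.

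Differences were fitted to all probe sets with limma 3.58.1 (lmFit, eBayes) in R 4.3.3, 2-sided, with Benjamini-Hochberg adjustment over all of them and a threshold of 0.05. No set test was run. Tested on simulated data of 22011 probe sets for this comparison, whose variances followed the prior of the real fit, it called 20% of changes of 1.5-fold, 66% at 2-fold, 86.4% at 3-fold and 92% at 4-fold. The simulated noise was independent between probe sets, with no shift between arrays, whereas the medians of the deposited arrays differed. These shares also depend on how many probe sets change, which is not known for the real samples. Arrays give no read depth, and their number limits the precision.

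The genes and lists were chosen with earlier results of these data known. Genes named beyond the 9 are the 3 of smallest p per pathway list and the most alike gene for 3 of the 9. MOG, CNP, MYF5, CHRNA1, MYOD1 and DES, from the marker lists, were named after their values were seen. The labels do not say whether replicates were separate cultures, so the p-values and the 95% intervals rest on a spread that may be technical. Replicate numbers are shared between groups, but the deviations of same-numbered arrays correlated at -0.18, 0.064 and -0.14, so the arrays were not treated as pairs. Differently numbered arrays correlated at -0.13 to 0.24, highest for control array 1 with treated array 3. Whether a batch was shared across the groups in another order cannot be told from these values. Alternatives were other scalings, filters, variance priors, array weights, the replicate block and leaving out arrays; leaving out control array 1 and treated array 3 together was chosen after seeing the data. Probe positions were not used.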

Additional observations from a re-analysis of the deposited data

How the results depend on the processing

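No gene of the set, and no probe set, was past the adjusted threshold in limma under any alternative run. The differences of KLB, FGFR2, FGFR4, FGFRL1 and FRS3 kept their direction throughout, also with the scalings, array weights and left-out arrays that can change it. The difference of FGFR1 was 0.0041 with median centring, 0.025 with quantile normalization and 0.018 with cyclic loess, and -0.10 to 0.022 with 1 array left out. That of FGFR3 was 0.020, 0.0092 and 0.0025 under the same scalings, 0.013 with array quality weights and -0.059 to 0.013 with 1 array left out. That of KL was -0.013 with array quality weights and -0.016 to 0.16 with 1 array left out. The median over the 8 genes was -0.0014 with median centring, -0.020 with quantile normalization and -0.090 to -0.034 with 1 array left out. The number of the 8 genes whose groups did not overlap was 2 as deposited and 0 under each of the 3 other scalings, beside 7.89% of all genes as deposited and 2.14% to 3.27% of all genes lower and 3.38% to 4.88% higher under those scalings. The number of probe sets with an unadjusted p under 0.05 was 703, and 436 without the dimmest 25% of probe sets and 447 with only probe sets of 1 symbol, where fewer were tested. It was 1644 with array quality weights, 577 to 1200 with 1 array left out (highest without treated array 3) and 1127 without control array 1 and treated array 3; the cause was not tested. With the replicate block the FRS3 difference was -0.27 with an unadjusted p of 0.0815, 0 probe sets passed and 662 had an unadjusted p under 0.05. The mean of all probe sets of a gene gave the same difference for these 8 genes, which have 1 each. Without the dimmest 25% of probe sets KL and KLB have no value. Replicates of 3 per group limit what could be detected, and no detection calls were used here.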
